A study of Homo sapiens with 12 samples.

Results

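RELB knockdown was compared with a control siRNA in the human line MDA-MB-231, which derives from a triple-negative breast cancer. The comparison rests on 6 of the study's 12 bead arrays, each hybridised with total RNA of 1 sample. Transfected cells held either a negative control siRNA (siNC) or one directed at RELB (siRelB). RNA came from cells given no TNFalpha or 10 ng/ml of this NF-kB-activating cytokine for 4 h. There were 3 siNC arrays without TNF, 1 siNC array with TNF, 1 siRelB array without TNF and 1 siRelB array with TNF. All groups share the same parent line and the transfection. The arrays with siRNAs against RELA (siRelA, 2 arrays) and EZH2 (siEZH2, 4 arrays) entered the fit as groups of their own, and siRelA also served as a direct comparison. The labels give no siRNA sequence, no number of siRNAs per gene and no statement that replicates were separate cultures, so an effect of RELB loss and an off-target effect of its siRNA cannot be told apart, and p-values reflect array-to-array spread that may be only technical.

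RELB is the NF-kB subunit best known from the non-canonical pathway, in which receptors such as the lymphotoxin beta receptor stabilise the kinase NIK, the NFKB2 precursor is processed to p52, and RELB-p52 dimers enter the nucleus. The canonical pathway, which TNF triggers, releases dimers of RELA and p50 from the inhibitor IkBalpha, encoded by NFKBIA. RELB is itself a target gene of canonical NF-kB. The line is known for high basal NF-kB activity and high inflammatory cytokine output.

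A short check of arrays and cells came first. Each array detected 12337 to 12908 of its 22184 probes. The mesenchymal line markers VIM, CD44 and AXL were detected on all 6 arrays and ESR1, PGR and FOXA1 on 0 of 6. FN1, which had been listed as a marker the line should show, was also detected on 0 of 6, while ERBB2 and GATA3 were detected at low levels on all 6. CDH1, listed as low or undetected in the line, was detected on 4 of 6, with log2 signals of 4.88 to 5.35 over the 6. Of 16 blood cell markers 8 were undetected on all 6 arrays, among them CD3E, MS4A1 and HBB, and the list's summed linear signal was 2264 to 4409 with siNC and 4394 to 4661 with siRelB. Of 25 epithelial and luminal genes 9 were undetected, ESR1 and FOXA1 among them, and the sum was 7917 to 9302 with siNC and 9474 to 9928 with siRelB. The part of these differences in the results was not tested. The siNC array of replicate 2 stood apart from the other siNC arrays, with a root mean square log2 difference of 0.687 to 0.766 from them against 0.223 to 0.312 among the others. Its background signal was 101.5, while that of the other 5 arrays lay between 58.1 and 70.3. The 2 siRelB arrays differed from each other by 0.192. The siNC array with TNF was read from 23.6 beads per probe, against 40.9 to 42.5 on the other 5 arrays.

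The genes that fell furthest with siRelB included inflammatory genes whose promoters hold a match to the kappaB motif, the sequence that NF-kB dimers bind. The 250 bases before the RefSeq gene start (GRCh38.p14) are shown for CXCL10, CXCL11, IL6 and LCN2, which fell, and for GSTP1, which rose. Each line runs 5′ to 3′ along the gene's own strand, and capitals mark matches to a loose kappaB motif (GGG, any 5 bases, CC) on either strand, with overlapping matches merged. CXCL10 lies at chr4:76023498-76023747 on the minus strand, CXCL11 at chr4:76036071-76036320 on the minus strand, IL6 at chr7:22726950-22727199 on the plus strand, LCN2 at chr9:128149203-128149452 on the plus strand and GSTP1 at chr11:67583562-67583811 on the plus strand.
CXCL10: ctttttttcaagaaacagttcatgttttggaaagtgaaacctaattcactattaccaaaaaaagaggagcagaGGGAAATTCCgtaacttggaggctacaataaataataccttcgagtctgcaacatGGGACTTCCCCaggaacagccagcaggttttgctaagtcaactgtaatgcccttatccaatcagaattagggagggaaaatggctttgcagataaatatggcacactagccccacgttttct
CXCL11: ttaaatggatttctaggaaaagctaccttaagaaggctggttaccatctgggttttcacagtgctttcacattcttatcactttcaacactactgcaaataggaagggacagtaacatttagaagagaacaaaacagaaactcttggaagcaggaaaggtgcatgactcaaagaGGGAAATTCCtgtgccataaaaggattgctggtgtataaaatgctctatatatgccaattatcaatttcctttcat
IL6: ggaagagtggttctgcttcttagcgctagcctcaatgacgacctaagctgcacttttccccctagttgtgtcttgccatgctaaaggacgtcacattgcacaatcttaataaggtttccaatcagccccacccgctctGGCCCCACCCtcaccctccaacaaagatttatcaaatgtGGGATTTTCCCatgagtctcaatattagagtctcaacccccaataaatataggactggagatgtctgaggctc
LCN2: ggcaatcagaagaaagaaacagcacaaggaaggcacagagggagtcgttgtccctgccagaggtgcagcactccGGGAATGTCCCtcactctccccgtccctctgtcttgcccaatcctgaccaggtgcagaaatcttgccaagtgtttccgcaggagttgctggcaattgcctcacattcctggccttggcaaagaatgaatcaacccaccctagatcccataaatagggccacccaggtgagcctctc
GSTP1: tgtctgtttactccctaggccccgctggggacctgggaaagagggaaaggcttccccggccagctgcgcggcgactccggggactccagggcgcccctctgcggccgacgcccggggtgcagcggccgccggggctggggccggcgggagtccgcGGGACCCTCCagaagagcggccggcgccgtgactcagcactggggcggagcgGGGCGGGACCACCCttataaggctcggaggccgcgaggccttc
In CXCL10 a match began 177 bases before the start and overlapping matches began 122 and 121 bases before it. The CXCL11 match began 76 bases before the start. IL6 had a match at 112 bases and overlapping ones at 73 and 72 bases, and those of LCN2 began at 176 and 175 bases. GSTP1 had matches at 95, 43 and 39 bases. The loose motif was common: 67.9% of the 9586 tested genes with a promoter in the table held it, as did 71.6% of the 67 matched genes that fell and 60% of the 40 that rose. A stricter kappaB consensus, added after the data were seen, was held by 11.3% of tested genes, 26.9% of those that fell and 12.5% of those that rose. The 5 promoters shown were chosen after their letters were read and all hold this consensus. Of the 12 largest falls 9 had a promoter in the table, and 4 of these 9 (44.4%) held the consensus and 5 (55.6%) the loose motif. Of the 12 largest rises 11 had one, and 2 (18.2%) held the consensus and 7 (63.6%) the loose motif. A match is a description of the letters and not evidence of binding.

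RELB itself was lower on both siRelB arrays. Normalized log2 signals were 8.16, 7.76 and 7.77 on the siNC arrays without TNF and 8.32 on the siNC array with TNF, against 5.09 with siRelB without TNF and 6.30 with siRelB and TNF. The groups did not overlap, and the siRelB array without TNF was not above background. RELB fell 5.55-fold (log2 change -2.47, SE 0.226, 2 arrays against 4, limma adjusted p = 0.000608). In the authors' processed log2 values the RELB change was -1.46 (adjusted p = 0.059). It was 5.85 and 6.14 on the siRelA arrays without and with TNF, so RELB was low there too. The direct difference between siRelB and siRelA was -0.30 (SE 0.256, adjusted p = 1), so the RELB level did not separate these siRNAs. RELA did: it lay at 6.61 and 6.92 with siRelB, within the siNC range of 6.78 to 7.34 on 1 array and below it on the other, and at 5.03 and 5.00, not above background, with siRelA. RELA changed by -0.23 with siRelB (adjusted p = 0.838), and was at least 2.97-fold higher with siRelB than with siRelA (adjusted p = 0.0269). That last call was lost without siRelB without TNF, siRelB with TNF, siNC replicate 1 or siNC with TNF, the largest adjusted p being 0.671.

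With siRelB 144 of 12275 genes passed, 1.17% of those tested, in a limma fit with siRNA and TNF as additive terms on the 12 arrays and Benjamini-Hochberg adjustment at 0.05. Of these 97 were lower (0.79% of genes) and 47 higher (0.383%), and 65 and 24 of them changed by over 2-fold. All 144 had the same direction without and with TNF, and in all 144 both siRelB arrays lay outside the siNC range. Over all genes both siRelB arrays lay above all siNC arrays for 15.3% and below them for 11.6%. The median log2 change over all genes was 0.04. With siRelA against siNC, a comparison that shares the siNC arrays, 56 of the 97 also passed as lower and 24 of the 47 as higher. Another 2 of the 144 passed with siRelA in the opposite direction. Over all 12275 genes 164 passed as lower with siRelA and 74 as higher. The count of 144 depended on the arrays used. Without both replicate 2 arrays (siNC and siEZH2) it was 1349 (626 higher, 723 lower), which held all 144. The authors centred the arrays in 2 processing sets. The first held replicates 1 and 2 of siNC and of siEZH2. The second held the other 8 arrays, among them both siRelB arrays, siNC replicate 3 and the siNC array with TNF. No siRelB array was in the first. In the second processing set alone the count was 1935 (949 higher, 986 lower), which also held all 144. It was 88 without siNC replicate 1, 334 without siNC replicate 2, 72 without siNC replicate 3, 32 without the siNC array with TNF, 19 without the siRelB array without TNF and 20 without the siRelB array with TNF. With the 6 siNC and siRelB arrays only, it was 1, that gene being CEMIP. In the authors' processed log2 values, which hold a probe centre computed separately in each of 2 processing sets, it was 48, and it was 248 in these values with the set as a term. Of 69 results named here that passed, against siNC or against siRelA, 40 lost their calls in the authors' values and 6 in these with the set as a term, and all 69 kept their direction in both. The 6 were PLCXD1, H2BC5, HLA-B, PSMB10 and SLC7A5 against siNC and SCG2 against siRelA. Unless stated, results given below for the authors' processed values have no set term.

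**Figure D1:**
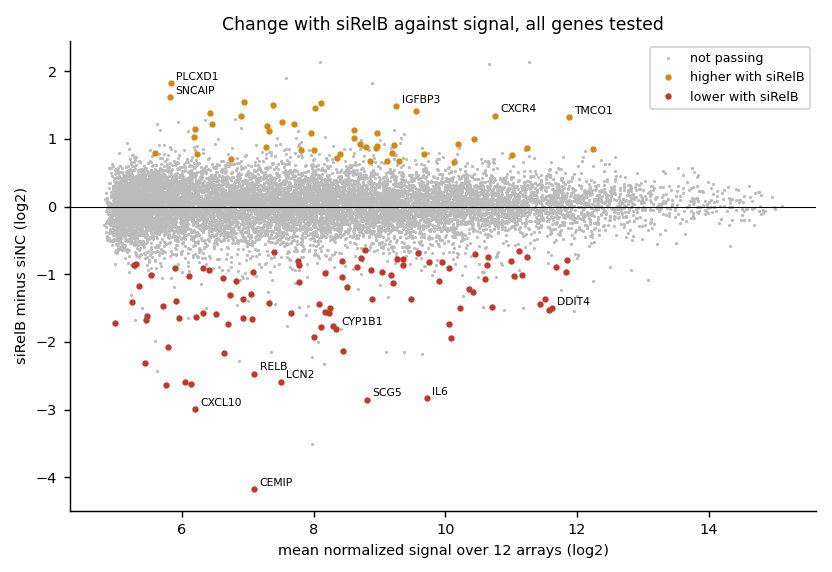
Change with siRelB (siRelB minus siNC, log2, averaged over TNF states) against mean normalized log2 signal over the 12 arrays, 1 point per gene for 12275 genes. The 47 genes that passed as higher are orange and the 97 that passed as lower are red; CEMIP, at -4.17, lies lowest.

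The largest fall was that of CEMIP, which encodes a hyaluronan-degrading protein. CEMIP was 9.32, 9.65 and 9.21 on the siNC arrays without TNF and 9.48 with TNF, against 5.30 and 5.12 with siRelB without and with TNF. The log2 change was -4.17 (SE 0.384, adjusted p = 0.000608), an 18.0-fold lower level, and CEMIP was above background on 1 of the 2 siRelB arrays. On the siRelA arrays CEMIP was 7.80 and 7.73. The direct difference from siRelA, -2.56 (SE 0.436), did not pass (adjusted p = 0.0665). CEMIP kept its call in all alternatives that gave it a value.

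The chemokines CXCL10 and CXCL11, which attract T cells through CXCR3, fell together. CXCL10 was 7.80, 8.46 and 7.79 with siNC without TNF and 8.70 with TNF, and 5.00 and 5.57 with siRelB, a 7.96-fold lower level (log2 change -2.99, SE 0.287, adjusted p = 0.000696). CXCL11 was 7.19, 7.08 and 7.63 with siNC without TNF and 8.10 with TNF, and 4.88 and 4.93, not above background on either array, with siRelB. It was at least 5.76-fold lower (adjusted p = 0.000608). IL6, an inflammatory cytokine, was 10.82, 12.36 and 10.82 with siNC without TNF and 11.84 with TNF, and 8.19 and 9.62 with siRelB. It fell 7.12-fold (log2 change -2.83, SE 0.477, adjusted p = 0.0206). On the siRelA arrays, without and with TNF, CXCL10 was 4.95 and 4.85, CXCL11 4.81 and 4.58, and IL6 8.80 and 9.20. None of the 3 differed directly between siRelB and siRelA past the threshold (limma, adjusted p = 1 for each). The siNC array of replicate 2 was the highest for IL6, and the call was lost with the processing set as a term (adjusted p = 0.0547). IL6 also lost its call without the siNC array with TNF or without either siRelB array, the largest adjusted p being 0.513, while CXCL10 and CXCL11 passed whichever siNC or siRelB array was left out. CXCL11 changed by -1.47 in the authors' processed values and did not pass (adjusted p = 0.203), whereas CXCL10 and IL6 did. CXCL10 was above background on 1 of the 2 siRelB arrays.

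LCN2, an iron-siderophore binding protein of innate defence, fell 6.01-fold. It was 9.54, 8.52 and 9.34 with siNC without TNF and 9.45 with TNF, and 6.51 and 6.88 with siRelB (log2 change -2.59, SE 0.436, adjusted p = 0.0206). Its call was lost without siNC replicate 1, siNC replicate 3, the siNC array with TNF or either siRelB array, the largest adjusted p being 0.459. SCG5, a chaperone of secretory granules, was 8.47, 9.05 and 8.26 with siNC without TNF and 8.12 with TNF, and 5.70 and 5.46 with siRelB, a 7.25-fold fall (adjusted p = 0.000448). ALOX5AP, which presents arachidonic acid to 5-lipoxygenase, fell 6.05-fold and was above background on 1 of the 2 siRelB arrays. VNN1, a pantetheinase, fell 4.39-fold, from 8.89 to 9.21 on the siNC arrays to 6.68 and 7.25. A further 3 genes among the 12 largest falls were not above background on either siRelB array. MAL2, a protein of membrane transport, was at least 5.71-fold lower, the annexin gene ANXA10 at least 3.72-fold lower and the myoglobin gene MB at least 3.01-fold lower. For MB a second probe changed by -0.90. MB lost its call without the siNC array with TNF or either siRelB array (adjusted p up to 0.23). In the authors' processed values 5 of these genes did not pass: LCN2 changed by -1.81 (adjusted p = 0.273), SCG5 by -0.57 (0.932), ALOX5AP by -1.43 (0.11), VNN1 by -0.99 (0.707) and ANXA10 by -1.16 (0.164). With the processing set as a term in those values these 5 passed. With siRelA against siNC LCN2, SCG5, ALOX5AP, VNN1 and MAL2 also passed as lower in limma, while ANXA10 and MB did not pass.

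**Figure D2:**
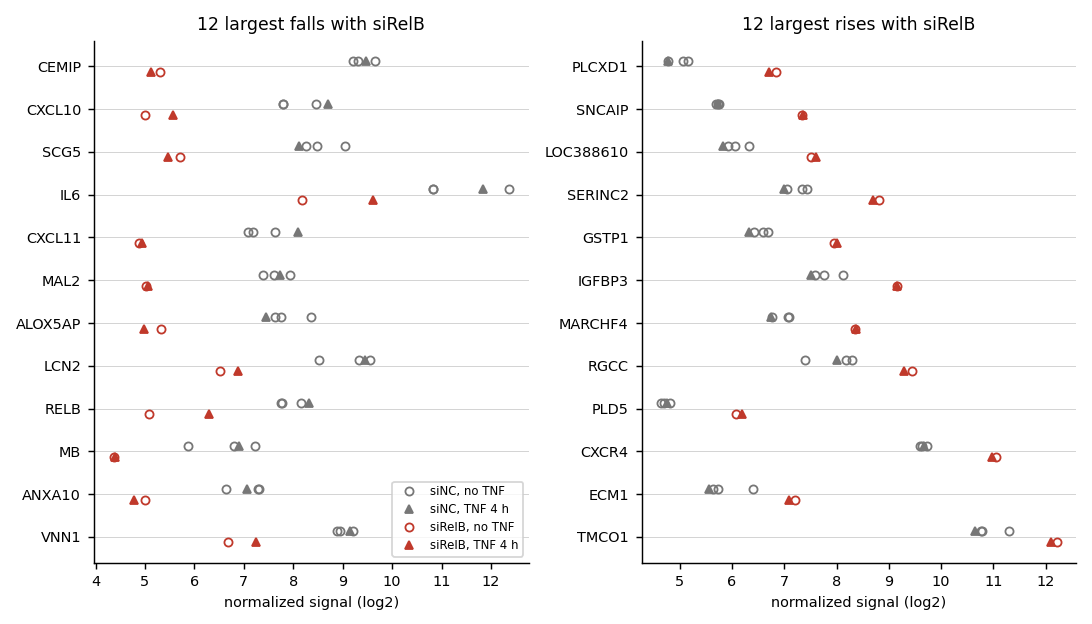
Normalized log2 signal on each of the 6 arrays for the 12 largest falls (left) and the 12 largest rises (right) that passed; grey marks siNC, red siRelB, open circles no TNF and triangles 4 h TNF. In every panel row the 2 siRelB arrays lie outside the range of the 4 siNC arrays, as for CEMIP at 5.30 and 5.12 against 9.21 to 9.65.

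Rises were smaller than the largest falls. SNCAIP, which encodes synphilin-1, a partner of alpha-synuclein, was 5.69, 5.74 and 5.75 with siNC without TNF and 5.73 with TNF, and 7.34 and 7.37 with siRelB. It rose 3.06-fold (log2 change 1.61, SE 0.147, adjusted p = 0.000608). PLCXD1, a phospholipase C-like gene not above background on any siNC array, was at least 2.98-fold higher, and PLD5, a phospholipase D family member also not above background with siNC, at least 1.90-fold higher. GSTP1, a glutathione transferase whose promoter is shown above, was 6.60, 6.69 and 6.43 with siNC without TNF and 6.32 with TNF, and 7.95 and 8.01 with siRelB, a 2.82-fold rise (adjusted p = 0.00208). IGFBP3, a carrier of insulin-like growth factors, rose 2.79-fold. CXCR4, the receptor of the chemokine CXCL12, was 9.72, 9.59 and 9.64 with siNC without TNF and 9.68 with TNF, and 11.05 and 10.96 with siRelB, a 2.53-fold rise (adjusted p = 0.0124). A second CXCR4 probe changed by 1.48. The calcium channel gene TMCO1 rose 2.50-fold, the matrix glycoprotein gene ECM1 2.52-fold, the serine incorporator gene SERINC2 2.89-fold, the membrane ubiquitin ligase gene MARCHF4 2.75-fold and the cell cycle regulator gene RGCC 2.66-fold. LOC388610, the name in the deposited table, rose 2.92-fold. With siRelA against siNC TMCO1, ECM1, SERINC2, RGCC, CXCR4, IGFBP3 and LOC388610 also passed as higher in limma. SNCAIP, PLCXD1, PLD5, GSTP1 and MARCHF4 did not pass there. Of these 12 genes only SNCAIP and PLD5 passed whichever siNC or siRelB array was left out. The other 10 lost their calls when either siRelB array was left out, with adjusted p-values of up to 0.601. CXCR4, ECM1, MARCHF4, PLCXD1, RGCC, SERINC2 and TMCO1 also lost them without the siNC array with TNF, ECM1, MARCHF4 and SERINC2 without siNC replicate 3, and ECM1 and MARCHF4 without siNC replicate 1. SERINC2 and RGCC lost them with the processing set as a term (adjusted p = 0.068 and 0.0545). In the authors' processed values PLD5 changed by 1.13 (adjusted p = 0.452) and CXCR4 by 1.04 (adjusted p = 0.175), and SERINC2, PLCXD1, ECM1 and MARCHF4 did not pass either (adjusted p = 0.55, 0.11, 0.0837 and 0.0614).

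The NF-kB target cytokines and chemokines were the gene list with the most genes lower. Of 26 tested members, 6 fell, 0 rose and 20 did not pass. The list median was -1.26, against 0.04 over all genes. Both siRelB arrays lay below all siNC arrays for 11 members. Over all genes this held for 11.6%, and 0.79% passed as lower. Besides CXCL10, CXCL11 and IL6, the granulocyte growth factor CSF3, above background on 1 of the 2 siRelB arrays, fell 4.22-fold (adjusted p = 0.00697), the membrane-bound chemokine CX3CL1 was at least 2.37-fold lower (adjusted p = 0.0328) and IL23A, the p19 subunit of interleukin-23, fell 3.10-fold (adjusted p = 0.00518). CSF3, CX3CL1 and IL23A lost their calls when either siRelB array was left out, CSF3 also without the siNC array with TNF and CX3CL1 also without siNC replicate 1 or 3, the largest adjusted p-values being 0.253, 0.473 and 0.149. None of these 3 genes passed in the authors' processed values (adjusted p = 0.148, 0.274 and 0.11).

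Other well-known NF-kB targets of the list did not pass. CXCL8, a neutrophil chemokine, was 13.54, 14.92 and 13.86 with siNC without TNF and 14.69 with TNF, and 12.83 and 14.26 with siRelB, so the groups overlapped (log2 change -1.08, SE 0.44, adjusted p = 0.409). On the siRelA arrays CXCL8 was 10.14 and 11.68, and its direct difference of 2.63 from siRelA did not pass either (adjusted p = 0.0999). Of the 26 members 0 differed past the threshold between siRelB and siRelA in limma, and the median of that difference was 0.46. CXCL1, another neutrophil chemokine, changed by -0.93 (adjusted p = 0.554). The myeloid growth factor CSF2 changed by -1.55 (adjusted p = 0.252) and IL1B, interleukin-1 beta, by -2.15 (adjusted p = 0.111); these were named after their values were seen. Without both replicate 2 arrays CSF2 and IL1B passed (adjusted p = 0.000527 and 0.00106) and CXCL8 and CXCL1 did not (0.153 and 0.159). That alternative took the number of list members that fell to 15, and that of all 12275 genes to 723.

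**Figure D3:**
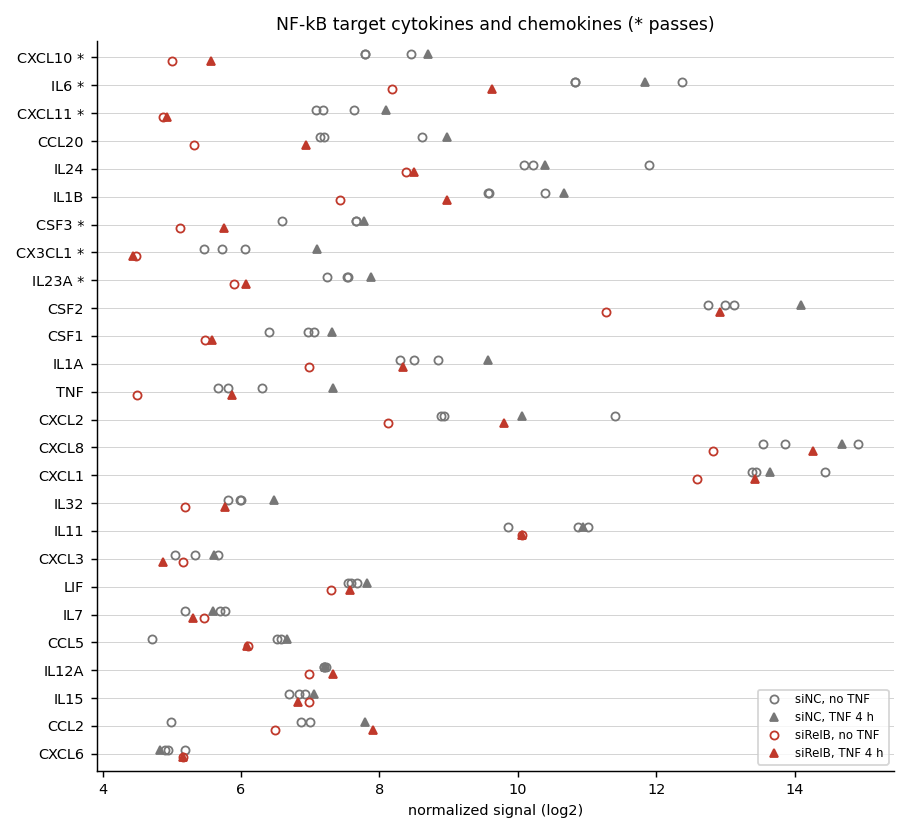
Normalized log2 signal on the 6 arrays for the 26 tested NF-kB target cytokines and chemokines, ordered by change with siRelB; grey marks siNC, red siRelB, open circles no TNF, triangles 4 h TNF, and an asterisk a gene that passed. CXCL10, IL6 and CXCL11 lie at the top with no overlap between groups, while for CXCL8 and CXCL1 the siRelB array with TNF lies within the siNC range.

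Among the 11 NF-kB subunits and inhibitors tested, only RELB passed, and the list median was -0.33. NFKB2, the partner of RELB in the non-canonical dimer, was 8.61, 7.84 and 8.35 with siNC without TNF and 8.67 with TNF, and 7.90 and 8.41 with siRelB (log2 change -0.33, adjusted p = 0.692). NFKB1, which encodes p105 and p50, changed by -0.02 (adjusted p = 0.989) and REL by -0.45 (adjusted p = 0.602). NFKBIA, the inhibitor IkBalpha, changed by -0.72 (adjusted p = 0.547) and its siRelB value with TNF, 12.85, lay within the siNC range of 12.22 to 13.36. Without both replicate 2 arrays NFKB2 passed as lower (adjusted p = 0.0392), and 3 members of the list were lower in all. Over all 12275 genes 723 were lower in that alternative.

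Of 18 tested receptors and signalling proteins of the non-canonical pathway, 1 fell and 17 did not pass, and the median was 0.00. The share of all genes that passed as lower was 0.79%. The member that fell was LTB, lymphotoxin beta, a ligand of the receptor that feeds this pathway. LTB was 7.16, 6.36 and 6.95 with siNC without TNF and 8.18 with TNF, and 5.35 and 6.08 with siRelB, a 3.12-fold fall (adjusted p = 0.0206). Its call was lost without siNC replicate 1, siNC replicate 3, the siNC array with TNF or either siRelB array, with an adjusted p of up to 0.422, and in the authors' processed values (0.0848). The non-canonical target list held 17 genes, of which 16 were on the array and 6 were tested. CCL19, CCL21, CXCL12, CXCL13, TNFSF11 and MADCAM1 were detected on too few arrays to be tested. The 6 tested were ICAM1, VCAM1, BIRC3, NFKB2, CD40 and DAPK3. Of these, 0 passed in limma and 2 were lower at an unadjusted p under 0.05 (list median -0.29). Over all 12275 genes 1284 had such a p in either direction. Of the 6, 2 passed as lower without both replicate 2 arrays and 3 in the second processing set alone, against 723 and 986 of all genes.

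Of 25 feedback and signalling genes of NF-kB, 1 fell, RELB itself, and the median was -0.40, while 0.79% of all genes passed as lower. TNFAIP3, which encodes the ubiquitin-editing enzyme A20, changed by -0.20 (adjusted p = 0.92), and BIRC3, an inhibitor of apoptosis, by -0.97 (adjusted p = 0.211). In the list of adhesion receptors, survival proteins and tissue genes that NF-kB targets, 3 of 28 fell, with a median of -0.48. Besides LCN2 and VNN1 this was PTGES, which makes prostaglandin E2 (3.34-fold, adjusted p = 0.0432). PTGES lost its call without siNC replicate 1, siNC replicate 3, the siNC array with TNF or either siRelB array (adjusted p up to 0.524) and in the authors' processed values (0.114). ICAM1, a leukocyte adhesion receptor, was 7.24, 8.58 and 7.31 with siNC without TNF and 8.23 with TNF, and 5.91 and 7.07 with siRelB, and did not pass (log2 change -1.49, adjusted p = 0.146). Without both replicate 2 arrays ICAM1 passed (adjusted p = 0.0057) and 13 members of the list were lower, as were 723 of all 12275 genes.

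Antigen presentation and interferon genes included a few falls. In the MHC class I list 3 of 19 fell, with a median of -0.28, while 0.79% of all genes passed as lower. The immunoproteasome subunits PSMB9 and PSMB10 fell 2.01-fold and 1.62-fold and the class I heavy chain gene HLA-B 1.86-fold, and HLA probes may not separate related genes. HLA-B was 11.92, 11.65 and 11.69 with siNC without TNF and 11.81 with TNF, and 10.93 and 10.84 with siRelB (adjusted p = 0.0362). Of 28 interferon-stimulated genes 2 fell, with a median of -0.19. These were BST2, an antiviral tether not above background with siRelB (at least 1.35-fold, adjusted p = 0.0218), and IFIT2, an antiviral RNA-response protein (1.72-fold, adjusted p = 0.0448). The calls of PSMB9, PSMB10, HLA-B, BST2 and IFIT2 were lost without siNC replicate 3, the siNC array with TNF or either siRelB array, the largest adjusted p being 0.643. PSMB10, HLA-B and IFIT2 were also lost without siNC replicate 1 and with the processing set as a term (adjusted p = 0.0626, 0.0545 and 0.0829), which left 1 gene lower in each list. PSMB9, PSMB10, HLA-B, BST2 and IFIT2 did not pass in the authors' processed values (adjusted p = 0.163, 0.11, 0.734, 0.369 and 0.169). Without both replicate 2 arrays 10 genes of the class I list and 8 of the interferon list were lower. So were 723 of all 12275 genes.

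Stress and metabolic lists held few genes that passed. Of 26 unfolded protein and ATF4 stress genes 2 fell, the median was -0.60, and both siRelB arrays lay below all siNC arrays for 18 of them; over all genes this held for 11.6%, and 0.79% passed as lower. DDIT4, an inhibitor of mTORC1, was 12.44, 12.12 and 12.36 with siNC without TNF and 12.20 with TNF, and 10.93 and 10.48 with siRelB, a 2.83-fold fall (adjusted p = 0.00088). The amino acid transporter gene SLC7A5 fell 1.96-fold (adjusted p = 0.0389). In the hypoxia and glycolysis list 1 of 28 fell, the glucose transporter gene SLC2A1 (1.77-fold, adjusted p = 0.0124), with a median of -0.38. In the antioxidant list 1 of 21 fell, the ferritin heavy chain gene FTH1 (2.78-fold, adjusted p = 0.0209), with a median of -0.27. SLC7A5, SLC2A1 and FTH1 lost their calls without the siNC array with TNF or either siRelB array, and SLC7A5 also without siNC replicate 1 or 3, the largest adjusted p being 0.763. With the processing set as a term SLC7A5 did not pass (adjusted p = 0.0673), which left 1 gene of the stress list lower. SLC7A5, SLC2A1 and FTH1 did not pass in the authors' processed values (adjusted p = 0.11, 0.375 and 0.427). Without both replicate 2 arrays 11 genes of the stress list, 10 of the hypoxia list and 7 of the antioxidant list were lower. In that alternative 723 of all 12275 genes were lower.

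Of 7 aryl hydrocarbon receptor genes 2 fell, with a median of -0.47, while 0.79% of all genes passed as lower. CYP1B1, an oestrogen- and hydrocarbon-oxidising enzyme, was 9.32, 9.63 and 9.58 with siNC without TNF and 9.41 with TNF, and 7.67 and 7.77 with siRelB, a 3.49-fold fall (adjusted p = 0.000696). ARNT2, a dimer partner of the receptor family, fell 2.58-fold (adjusted p = 0.00092), and its adjusted p was 0.0656 without the siRelB array without TNF. In the protease list 2 of 23 fell, with a median of -0.07. CTSS, the lysosomal protease cathepsin S, fell 3.01-fold (adjusted p = 0.0152) and PLAT, tissue plasminogen activator, 2.72-fold (adjusted p = 0.0144). CTSS and PLAT lost their calls without the siNC array with TNF or either siRelB array, with adjusted p-values of up to 0.326. CYP1B1, CTSS and PLAT did not pass in the authors' processed values (adjusted p = 0.0614, 0.563 and 0.206).

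The lists of mitosis, DNA replication, mesenchymal, epithelial, blood cell, p53, cholesterol, immediate early, BCL2 family, PRC2 and TGF-beta genes held 0 genes that passed with limma, while 24 of their 226 genes had an unadjusted p under 0.05, 13 higher and 11 lower. Such a p was found for 1284 of all 12275 genes, a like share. Counted list by list, 21 members of these lists passed as higher and 19 as lower without both replicate 2 arrays. Over all genes 626 and 723 did. Among the members were 5 higher and 2 lower of the immediate early list, 4 higher of the DNA replication list and 1 higher and 5 lower of the TGF-beta list. The medians of these lists lay between -0.21 and 0.16, near the 0.04 of all genes. Mitosis genes had a median of 0.15 over 33 genes, with 27 values above 0, as were 55.4% of the changes over all 12275 genes. EZH2 changed by 0.47 (adjusted p = 0.733).

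**Figure D4:**
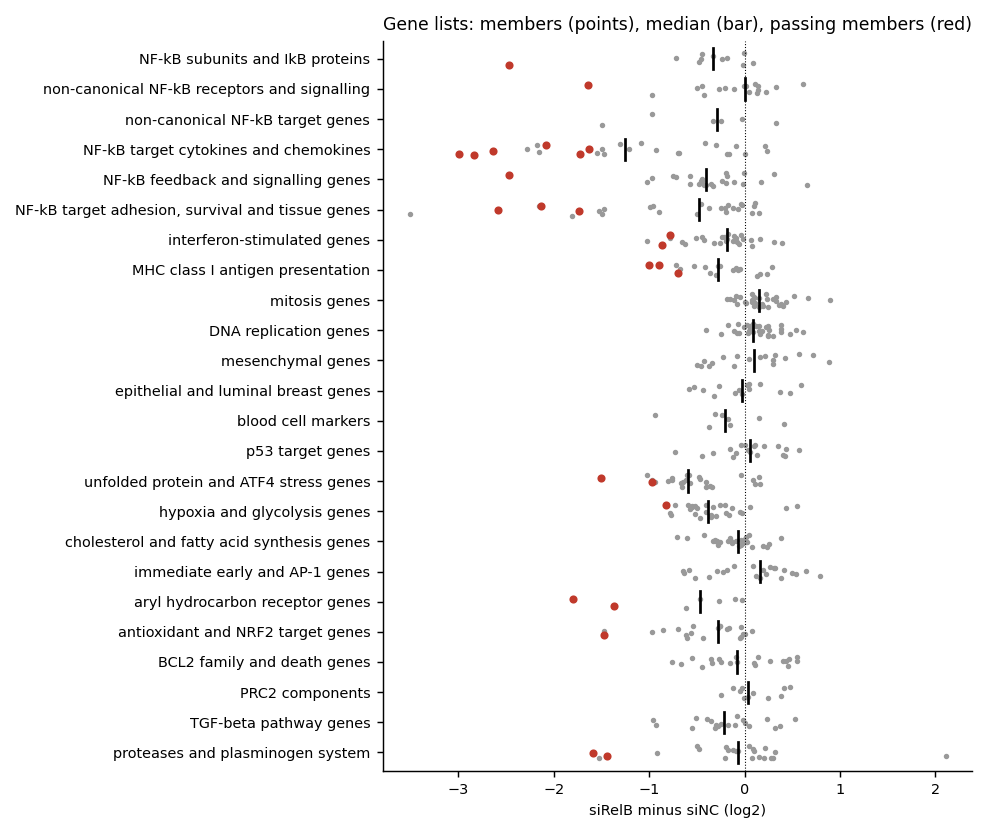
Change with siRelB (siRelB minus siNC, log2) for each tested member of the 24 gene lists; grey points did not pass, red points passed, and bars are list medians. The cytokine list has the lowest median, -1.26, and 0 of the 456 list members passed as higher (16 at an unadjusted p under 0.05, limma), while 28 did without both replicate 2 arrays, counted list by list. Over all 12275 genes 47 passed as higher, and 626 did without both replicate 2 arrays. An unadjusted p under 0.05, in either direction, was found for 1284 of them and for 108 of the 456.

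Whether the change with siRelB differed between cells without and with TNF was tested as an interaction, which rests on 1 array with TNF in each arm and assumes that it varies like the replicated groups. No gene passed in limma (0 of 12275, 0%), and 15 had an unadjusted p under 0.05. As a share of all genes these 15 lie below the 0.05 cut itself. The 0 therefore does not show that the change was the same in both TNF states. RELB was 0.43 higher with TNF than without it on the siNC arrays and 1.21 higher on the siRelB arrays, values with no test of their own. Over the 26 cytokines and chemokines the median TNF response was 0.50 with siNC and 0.46 with siRelB, and 23 and 20 of the values were above 0. CXCL8 differed by 0.58 between the TNF states with siNC and by 1.44 with siRelB, and IL6 by 0.50 and 1.44. The siNC differences use the mean of 3 arrays without TNF, which includes replicate 2. On replicate 2 CXCL8 was 14.92 and IL6 12.36, above the 14.69 and 11.84 of the siNC array with TNF. On replicates 1 and 3 CXCL8 was 13.54 and 13.86, and IL6 was 10.82 on both. LTB differed by 1.35 and 0.73.

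The direct comparison of siRelB with siRelA, set 2 arrays against 2. RELB was low on all 4, so it does not set loss of RELB alone against loss of RELA alone. It shares no siNC array as a control, but its error comes from the same fit. Of 12275 genes 21 passed (0.171%), 14 higher with siRelB (0.114%) and 7 lower (0.057%). The count was 592 without both replicate 2 arrays, 923 in the second processing set alone, 74 without siNC replicate 2, 2 without the siRelB array without TNF and 2 without the siRelB array with TNF. Of 18 named genes, 2 passed whichever siNC or siRelB array was left out, VNN1 and H2BC21.

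Genes lower with siRelB than with siRelA included receptors and secretory genes. VIPR1, a receptor of vasoactive intestinal peptide, was 8.02, 7.76 and 8.09 with siNC without TNF and 7.80 with TNF, 6.18 and 5.69 with siRelB, and 7.38 and 7.34 with siRelA. The direct difference was -1.42 (SE 0.187, adjusted p = 0.0152). SCG2, a secretory granule protein, and ABCC3, an organic anion transporter, were not above background with siRelB and were at least 2.42-fold and 2.77-fold lower than with siRelA. GCNT2, an enzyme that branches glycans, differed by -1.26 (adjusted p = 0.0104) on its brighter probe, while a second probe changed by -0.26 with siRelB. The tetraspanin gene TSPAN8 differed by -1.15 (adjusted p = 0.0474) and SLAMF7, an immune cell receptor gene, by -1.11 (adjusted p = 0.0152). SLAMF7 was 6.80 and 6.81 with siRelB and 7.97 and 7.86 with siRelA, against 7.13 to 7.24 with siNC. With siRelB against siNC it did not pass (log2 change -0.40, limma adjusted p = 0.251). SPINK4, a protease inhibitor, was at least 4.63-fold lower with siRelB. SPINK4 was 5.90, 4.75 and 5.72 with siNC without TNF and 6.04 with TNF, 5.05 and 5.03 with siRelB, and 7.28 and 7.49 with siRelA, so the siRelA arrays were the high ones. In the authors' processed values VIPR1, SCG2 and TSPAN8 did not pass (adjusted p = 0.971, 0.514 and 0.525), and TSPAN8 did not with the processing set as a term (0.0589). All 7 lost their calls when either siRelB array was left out, with adjusted p-values of up to 0.904.

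Genes higher with siRelB than with siRelA included VNN1, SNCAIP and RELA. VNN1 fell with both siRNAs: it was 6.68 and 7.25 with siRelB, and 4.47 and 4.51, not above background, with siRelA, at least 3.41-fold higher with siRelB (adjusted p = 0.000851). The VNN1 difference was 1.60 in the authors' processed values and did not pass (adjusted p = 1). SNCAIP was 5.51 and 5.43 with siRelA and differed by 1.88 (SE 0.167, adjusted p = 0.00176). Its call was lost when either siRelB array was left out (adjusted p up to 0.0668). G0S2, an inhibitor of fat breakdown, MPP4, a scaffold protein gene, and PLD5 lie outside the naming rule for this comparison and were named after their values were seen. G0S2 differed by 1.32 (adjusted p = 0.00865) and MPP4 by 1.63 (adjusted p = 0.00274). PLD5 was at least 1.92-fold higher than with siRelA, and in the authors' processed values it differed by 0.71 and did not pass (adjusted p = 1). The 3 calls were lost when either siRelB array was left out, with adjusted p-values of up to 0.248.

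Replication-type histone genes made up 8 of the 14, a group singled out after its values were seen. H2BC21 was 8.54, 8.43 and 8.56 with siNC without TNF and 8.57 with TNF, 9.65 and 9.69 with siRelB, and 6.69 and 7.06 with siRelA. It was 6.94-fold higher with siRelB than with siRelA (log2 difference 2.80, SE 0.222, adjusted p = 0.000909). H2BC5 was 12.55, 11.97, 12.41 and 12.38 on the siNC arrays, the last with TNF, 13.18 and 13.14 with siRelB, and 11.25 and 11.13 with siRelA, a difference of 1.97 (adjusted p = 0.00283). H2AC18 was 12.64, 11.94 and 12.38 with siNC without TNF and 12.38 with TNF, and 12.42 and 12.42 with siRelB, against 10.52 and 10.65 with siRelA. For H2AC18 the siRelA arrays were the low ones, and siRelB lay within the siNC range. H2AC6 and H2AC7 differed by 1.88 and 1.82. H2AC6 was 12.04 and 12.00 with siRelB and 10.11 and 10.17 with siRelA, against 11.19 to 11.67 with siNC. H2AC7 was 7.51 and 7.68 with siRelB and 5.79 and 5.75 with siRelA, against 6.75 to 7.10 with siNC. Neither passed with siRelB against siNC (log2 changes 0.66 and 0.59, limma adjusted p = 0.136 and 0.318). Histone genes have near-identical copies, so the gene behind each probe is uncertain. H2BC5, H2AC6, H2AC7 and H2AC18 lost their calls when either siRelB array was left out, the largest adjusted p being 0.366.

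**Figure D5:**
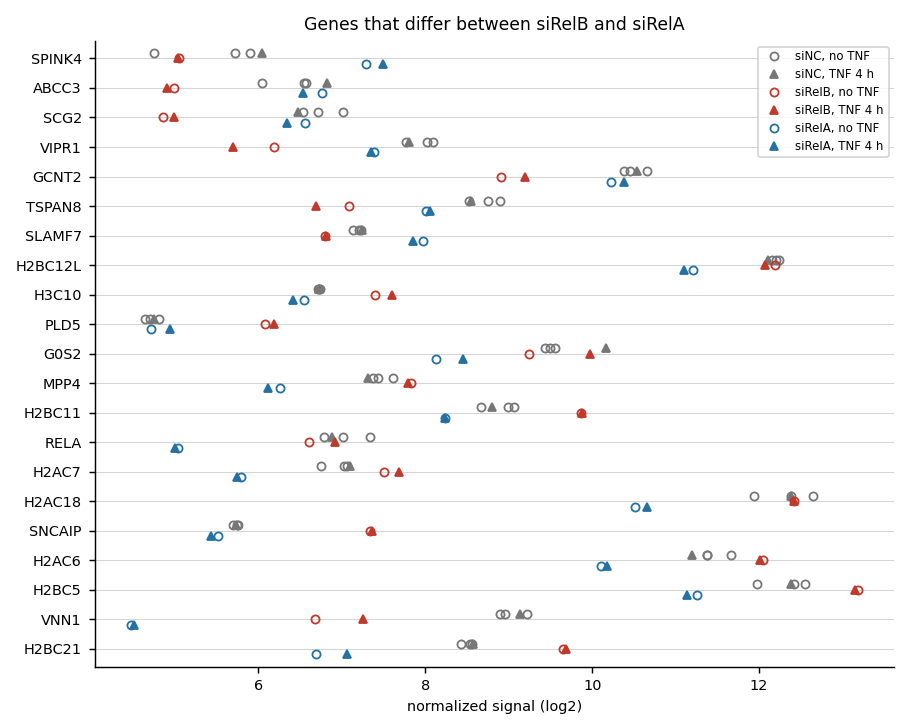
Normalized log2 signal for the 21 genes that passed between siRelB and siRelA, ordered by the difference; grey marks siNC, red siRelB, blue siRelA, open circles no TNF and triangles 4 h TNF. VIPR1 and SCG2 are low with siRelB and near siNC with siRelA, while H2BC21 lies above siNC with siRelB and below it with siRelA.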

How the data were processed

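Total RNA was hybridised to Illumina bead arrays, 1 colour and 1 array per sample. The authors deposited linear, unnormalized average signal intensity for every probe, per the file headers, and BeadStudio 3.2.7 is named in the submitters' processing notes. Beside it the authors deposited a detection score, a fraction that is higher for brighter probes, so that the detection p is 1 minus that score. The authors also deposited processed log2 values, which, as read from the values, are log2 signals less each array's 75th percentile and less a probe centre computed separately in 2 processing sets (4 and 8 arrays). These served as an alternative.

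In R 4.3.3, limma 3.58.1 applied a normal-exponential background correction, an offset of 16, quantile normalization and log2. Probes detected at p under 0.05 on 3 or more of the 12 arrays were retained (13884), and each of 12275 genes took its brightest kept probe. Gene names were updated through RefSeq (GRCh38.p14), 3311 probes by a synonym and 136 by letter case, while 887 matched no entry. The additive fit of siRNA and TNF used all 12 arrays (lmFit, eBayes), and the interaction a mean per group. For a gene undetected throughout an arm, "at least N-fold" averages, over both TNF states, the difference from the higher of its own value and the lowest detected value of that array. The fits were tested on simulated data. Precision depends on the few arrays per group, 2 with siRelB, and on the spread of the replicate 2 arrays.

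Named genes were RELB and other subunits, the 12 largest rises and falls, at most 6 members that passed per list with up to 3 that did not, and the 8 largest in each direction against siRelA. Members and lists were chosen with earlier results of these data known.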

Additional observations from a re-analysis of the deposited data

How the results depend on the processing

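The 69 named results that passed, siRelB against siNC or siRelA, kept their direction in every alternative that gave them a value. Of these, CEMIP (siRelB against siNC) and H2BC21 (siRelB against siRelA) passed in all alternatives run, and 17 passed whichever siNC or siRelB array was left out. Counts of genes, siRelB against siNC (144), were 1 with the 6 siNC and siRelB arrays only, 1935 in the second processing set alone, 1349 without both replicate 2 arrays, 48 in the authors' processed log2 values and 248 in these with the processing set as a term, an alternative chosen after seeing the data. Leaving out 1 array gave 19 to 334. Of the 69, 40 lost their calls in the authors' values, 6 in these with the set term, 11 with the set term on the normalized signals and 0 in the second set alone. Counts against siRelA (21) were 923 in the second set, 592 without both replicate 2 arrays, 12 with detection required on all 12 arrays and 36 in the authors' values with the set term, and 2 to 74 with 1 array left out. With a replicate block the counts were 462 and 364; the siRelB and siRelA arrays carry no replicate number, so no pairing could be checked for them. The RELB change was -2.49 with 6 arrays only (limma adjusted p = 0.0788). It was -1.46 in the authors' values (0.059), -1.73 in these with the set term (0.001) and -2.79 to -2.09 with 1 array left out. RELB was not tested where detection on all 12 arrays was required. The interaction gave 0 genes in all alternatives run; the second set alone, the replicate block and leaving out an array with TNF or siRelB gave no value. Changes that did not pass turned sign for NFKB1 (0.095 with the set term, 0.11 in the second set, 0.0048 with median centring, 0.090 without both replicate 2 arrays, -0.18 to 0.18 with 1 array left out, 0.15 in the authors' values with the set term), RELA (-0.44 to 0.015 with 1 array left out) and EZH2 (-0.15 in the authors' values). The cause was not tested.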

Other observations

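MHC class II genes, which present peptides to helper T cells, were looked at after their values were seen. Of 10 tested, 3 fell with siRelB and 0 rose, with a median of -0.76 against 0.04 over all genes. The share of all genes that passed as lower was 0.79%. With siRelA against siNC, a comparison that shares the siNC arrays, 5 of the 10 passed as lower, as did 164 of all 12275 genes. HLA-DRA was 10.95, 11.43 and 10.89 with siNC without TNF and 10.81 with TNF, and 9.07 and 8.93 with siRelB, a 3.83-fold fall (limma adjusted p = 0.0206). HLA-DPA1 fell 2.59-fold (adjusted p = 0.0231) and HLA-DRB4 2.02-fold (adjusted p = 0.0308), and probes of this family may not separate related genes. HLA-DRA, HLA-DPA1 and HLA-DRB4 lost their calls without the siNC array with TNF, without either siRelB array (adjusted p up to 0.664) and in the authors' processed values (0.545, 0.384 and 0.55), HLA-DPA1 and HLA-DRB4 also with the processing set as a term (0.0516 and 0.0668). The invariant chain gene CD74 was 11.82, 10.80, 11.51 and 11.55 on the siNC arrays, the last with TNF, and 10.59 and 10.57 with siRelB, and did not pass (log2 change -0.86, adjusted p = 0.167).

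Of 43 tested replication-type histone genes, 4 rose with siRelB and 0 fell, with 38 changes above 0 and a median of 0.33. Over all genes 0.383% passed as higher, 55.4% of changes were above 0 and the median was 0.04. Against siNC, H2BC21 and H2BC5 lost their calls without siNC replicate 1, siNC replicate 3, the siNC array with TNF or either siRelB array. Their changes were 1.10 to 1.15 and 0.73 to 0.91 with 1 array left out. H2BC5 also did not pass in limma with the processing set as a term (adjusted p = 0.0869) or in the authors' processed values (0.164). In the direct comparison 8 of the 43 histone genes were higher with siRelB than with siRelA and 0 lower, while 0.114% of all genes passed as higher. With siRelA against siNC, a comparison that shares the siNC arrays, 6 of the 43 passed as lower and 0 as higher. Among all 12275 genes 164 and 74 did.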
